A study of Zea mays with 7 samples.

Results

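Among the 4 *Bif3/Bif3* pools of ear primordia, 128 of the 110451 genes in the table were high in replicates 1 and 2 and low in replicates 3 and 4. The genes were chosen from these measured values. Levels are given as CPM, the count of a gene divided by the total count of its pool and multiplied by 1000000, which is not corrected for gene length. A gene had to average at least 2 CPM over the 4 *Bif3/Bif3* pools, which 19807 genes did, and its lower value in replicates 1 and 2 had to be at least 2 times its higher value in replicates 3 and 4. The rule was met by 129 genes. One of them, *GRMZM2G110997*, had 8.38 CPM in replicate 1 and no count in replicates 2, 3 and 4, so it met the rule only because 0 is 2 times 0, and it is not among the 128. *GRMZM2G101511* (*TGA1*) was left out by the rule. In the opposite direction, with replicates 3 and 4 over replicates 1 and 2, the same limits gave 9 genes. Leaving out 1 pool loosens the fold limit: 238 genes would have met the rule without *Bif3/Bif3* replicate 3 and 300 without replicate 4. The number also rose without replicate 1 or without replicate 2.

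RNA-seq had been performed on ear primordia of 3 to 4 mm from field-grown maize in the B73 background, with 3 pools labelled wildtype and 4 pools labelled *Bif3*. Each pool held 3 ear primordia and counts as 1 biological replicate. The methods of the study state that the mutants were homozygous and that the wild-type plants were their siblings, while the labels give no zygosity and say that mutant ears were recognized by their appearance. *Barren inflorescence3* is known from a single allele, introgressed into B73, that carries a tandem duplicate of the stem cell regulator *ZmWUS1*. Total counts per pool were between 41720131 and 56057512, with the largest in wild-type replicate 2, and the smallest count of any of the 128 genes in *Bif3/Bif3* replicates 1 and 2 was 115.

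The maize ear primordium is a column of meristems of graded age: the inflorescence meristem at the tip gives rise to spikelet pair meristems, and these to spikelet and floral meristems and their organs further down. A whole primordium therefore mixes many cell types, and in such bulk samples fewer cells of a type and less RNA per cell cannot be told apart. Several of the 128 genes act in the synthesis of benzoxazinoids, the indole-derived defence compounds for which young maize tissue is known. In that pathway BX1 releases indole from indole-3-glycerol phosphate, the cytochromes P450 BX2, BX3, BX4 and BX5 add oxygen to it in turn, and the glucosyltransferases BX8 and BX9 attach glucose to the product.

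The ratio used by the rule, the lower of replicates 1 and 2 over the higher of replicates 3 and 4, had a median of 2.38 and a maximum of 6.98. It was under 2.5 in 77 genes, at least 3 in 32 genes and at least 4 in 9 genes. Just inside the limit were *GRMZM2G401883* with a ratio of 2.004 and *GRMZM2G070998* and *GRMZM2G004211*, both with 2.001. Just outside were *GRMZM2G162928* with 1.998 and *GRMZM2G402417* and *GRMZM2G543629*, both with 1.994, so the limit cut through a continuous range. The mean in *Bif3/Bif3* was under 5 CPM in 67 of the 128 genes and over 20 CPM in 15. Of the 128, 50 had a name, either a symbol from the reference gene table or the study's own annotation, and the study's annotation covers only genes of its own list of differentially expressed genes.

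The wild-type pools took no part in choosing the genes, and they did not lie together. Wild-type replicate 2 was the highest of the 3 wild-type pools in 113 of the 128 genes, or 88.3%, where it was highest in 30.5% of the other 19677 genes that averaged at least 2 CPM in *Bif3/Bif3*. Replicate 1 was highest in 12 genes and replicate 3 in 3. In 58 genes, or 45.3%, wild-type replicate 2 was at least 2 times both of the other wild-type pools, against 0.605% of the other genes. Neither of the other wild-type pools stood out in this way in any of the 128. The difference between wild-type replicate 2 and the mean of replicates 1 and 3 had a median of 0.90 on the log2(CPM + 0.5) scale, with quartiles of 0.59 and 1.5, and a median of -0.00 in the other genes. With a single pool apart there is no replicate of this difference, and no test was made of it.

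**Figure D1:**
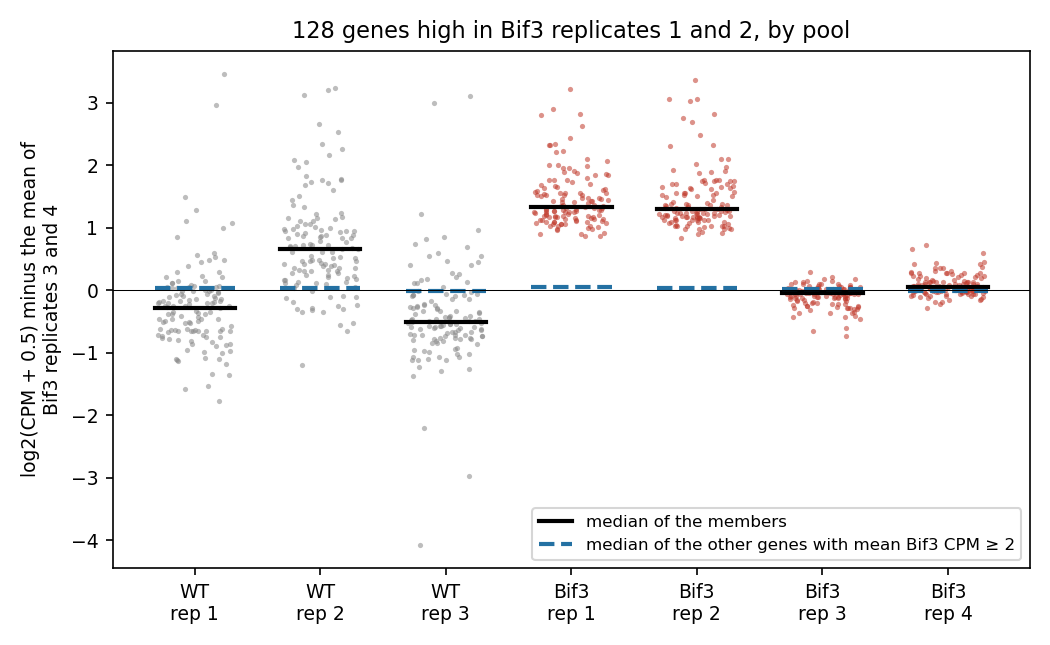
Each point is 1 of the 128 genes in 1 pool, as log2(CPM + 0.5) minus the gene's mean in Bif3/Bif3 replicates 3 and 4. Grey points are wild-type (WT) and red points Bif3/Bif3, black bars are medians of the 128 genes and dashed blue bars medians of the other 19677 genes. Bif3/Bif3 replicates 1 and 2 lie at medians of 1.34 and 1.30 by construction of the rule, and wild-type replicate 2, which the rule did not use, lies at 0.66 between them and the other wild-type pools at -0.28 and -0.50.

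Wild-type replicates 1 and 3 lay at or below the level of *Bif3/Bif3* replicates 3 and 4, and wild-type replicate 2 lay between those and replicates 1 and 2. Summed over the 128 genes, the wild-type pools had 725, 1405 and 599 CPM and the *Bif3/Bif3* pools 2369, 2361, 765 and 870 CPM. Relative to the mean of *Bif3/Bif3* replicates 3 and 4, the medians of wild-type replicates 1, 2 and 3 were -0.28, 0.66 and -0.50 on the log2(CPM + 0.5) scale. Gene by gene, wild-type replicate 1 was below both of *Bif3/Bif3* replicates 3 and 4 in 81 genes, wild-type replicate 3 in 99 and wild-type replicate 2 in 16. In 85 genes wild-type replicate 2 was above both of *Bif3/Bif3* replicates 3 and 4 and below both of replicates 1 and 2, and in 13 genes it was above all 4 *Bif3/Bif3* pools. The wild-type mean was nearer to *Bif3/Bif3* replicates 3 and 4 than to replicates 1 and 2 in 116 genes, or 90.6%, against 60.8% of the other genes. All wild-type pools were below both of *Bif3/Bif3* replicates 1 and 2 in 105 genes, or 82.0%, against 26.3% of the other genes. These last measures include the pools that chose the genes, so the shares in the other genes are given for scale only.

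The size of the difference within wild-type and the size within *Bif3/Bif3* were loosely related across the 128 genes. The difference of replicates 1 and 2 from replicates 3 and 4 in *Bif3/Bif3* and the difference of wild-type replicate 2 from the other wild-type pools had a Pearson correlation of 0.44 and a Spearman correlation of 0.35. Over the other 19677 genes the same correlations were 0.40 and 0.26, and in both cases the genes share the same 7 libraries and are not independent. The relation was thus present in the table as a whole. Over 21640 genes with a mean of at least 1 CPM, the deviations of wild-type replicate 2 from its genotype mean had correlations of 0.26 and 0.49 with those of *Bif3/Bif3* replicates 1 and 2, and of -0.32 and -0.33 with those of replicates 3 and 4. Deviations within a genotype sum to 0, so these values are tied to each other.

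**Figure D2:**
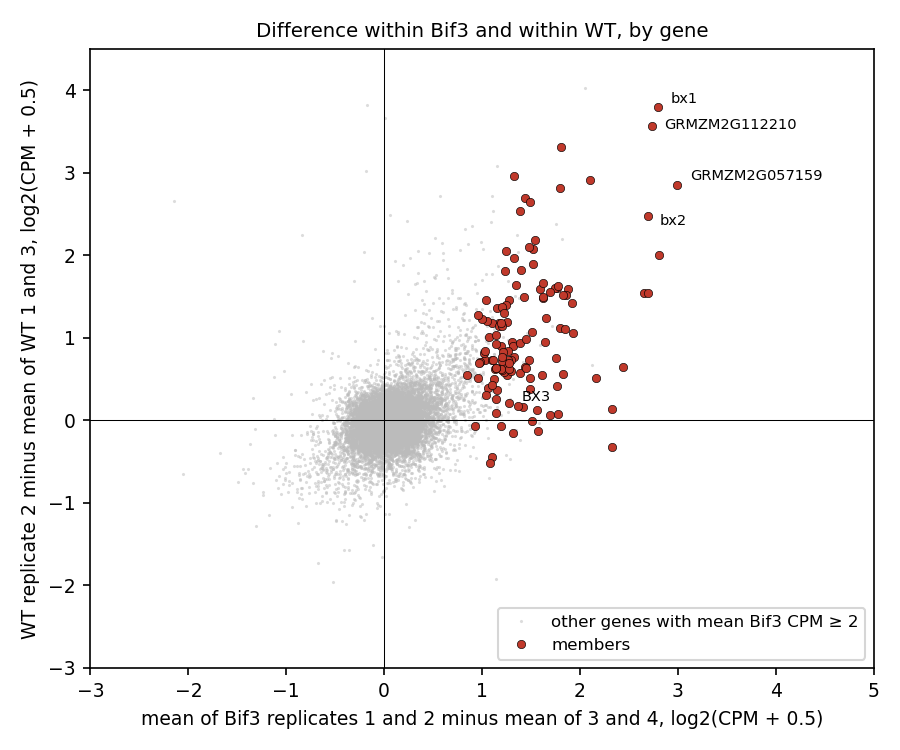
Each point is 1 gene, with the mean of Bif3/Bif3 replicates 1 and 2 minus the mean of replicates 3 and 4 on the horizontal axis and wild-type replicate 2 minus the mean of wild-type replicates 1 and 3 on the vertical axis, both in log2(CPM + 0.5). The 128 genes (red) lie right of 0 because the rule chose them there, and 120 of them also lie above 0 on the vertical axis, with bx1, GRMZM2G112210, GRMZM2G057159 and bx2 at the upper right.

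Of the pathway genes, the first steps of benzoxazinoid synthesis were high in *Bif3/Bif3* replicates 1 and 2 and in wild-type replicate 2. *bx1* (*GRMZM2G085381*), which commits indole to the pathway, had 6.73, 15.4, 0.649 and 1.57 CPM in *Bif3/Bif3* replicates 1 to 4 and 0.647, 13.7 and 0.408 CPM in wild-type replicates 1 to 3. Wild-type replicate 2 was 21.1 times the higher of the other wild-type pools for *bx1*, and the pools of the genotypes overlapped. *bx2* (*GRMZM2G085661*), the first P450 of the pathway, had 11.2, 19.1, 0.917 and 3.38 CPM in *Bif3/Bif3* and 2.11, 9.42 and 0.718 CPM in wild-type. For *bx2*, wild-type replicate 2 stayed below both high mutant pools. The log2 fold changes of *Bif3/Bif3* over wild-type were 0.25 ± 1.06 (SE) for *bx1* and 1.02 ± 0.86 (SE) for *bx2*, neither past the threshold used below.

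The later P450 genes of the pathway differed from *bx1* and *bx2* in wild-type. *BX3* (*GRMZM2G167549*) had 369, 405, 111 and 171 CPM in *Bif3/Bif3* and 142, 142 and 69.2 CPM in wild-type, where replicates 1 and 2 were level. *BX4* (*GRMZM2G172491*) had 14.2, 10.7, 4.43 and 4.05 CPM in *Bif3/Bif3* and 4.2, 6.0 and 3.2 CPM in wild-type. All wild-type pools were below both high mutant pools in *BX3* and *BX4*. In the gene order of the NAM-5.0 assembly, *bx1* and *bx2* were neighbours, *BX3* and *BX4* were 2 places apart, and all 4 genes lay within 8 places of each other. Among the 96 of the 128 genes that could be placed in that order, 10 pairs lay within 10 places, and 6 of the 10 pairs were pairs of these benzoxazinoid genes.

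The pathway list was drawn up after its values had been seen and held 10 genes with enough counts to be fitted, of which 4 were among the 128. Their median log2 fold change was 0.71, against -0.04 in the other genes with at least 2 CPM. Past the threshold of *Bif3/Bif3* against wild-type were 3 genes, all higher and none of them among the 128, where 3.39% of the 40650 genes fitted were higher. *BX5* (*GRMZM2G063756*), the last P450 of the series, had 714, 790, 325 and 493 CPM in *Bif3/Bif3* and 196, 221 and 113 CPM in wild-type. The mutant pools were all above the wild-type pools, and replicates 1 and 2 were again the highest, and the log2 fold change was 1.68 ± 0.28 (SE; edgeR, Benjamini-Hochberg adjusted p = 0.0102). The glucosyltransferase genes *bx8* and *bx9* had log2 fold changes of 0.66 and 0.68, with adjusted p = 0.0144 and 0.0853 in edgeR. Wild-type replicate 2 was the highest wild-type pool in 9 of the 10 genes, and *Bif3/Bif3* replicates 1 and 2 were both above replicates 3 and 4 in 7. The exception in wild-type was *igl1* (*GRMZM2G046191*), which encodes a second enzyme that releases indole, with 51.0, 45.5 and 41.4 CPM in wild-type and 46.7, 45.5, 46.9 and 37.7 CPM in *Bif3/Bif3*.

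**Figure D3:**
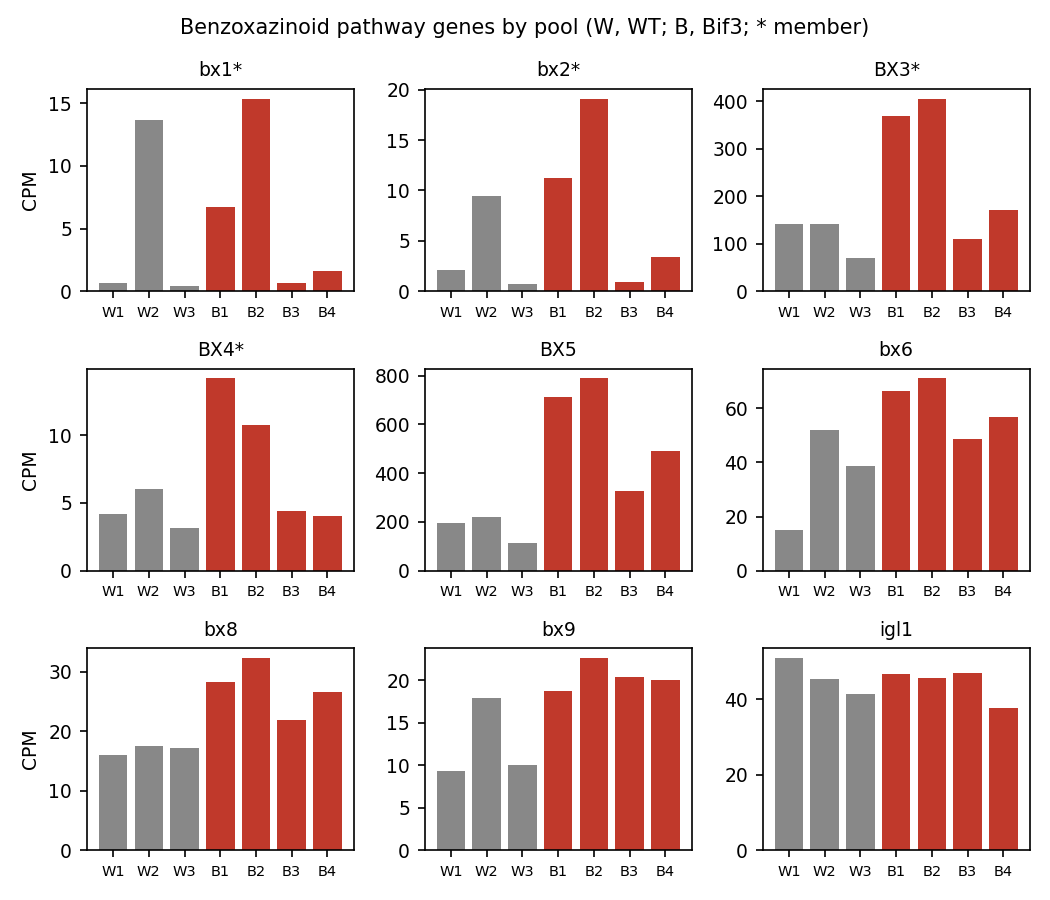
Bars give the level of 9 of the 10 benzoxazinoid genes in each pool in CPM, with wild-type (W1 to W3) in grey, Bif3/Bif3 (B1 to B4) in red and an asterisk on the 4 genes among the 128. In bx1 and bx2 the bars W2, B1 and B2 stand above the rest, in BX3, BX4 and BX5 B1 and B2 are the highest, and igl1 is nearly level at 37.7 to 51.0 CPM. The tenth gene, Igl, had at most 0.141 CPM in any pool and is not drawn.

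Developmental regulators were the largest named group, with 11 transcription factors and related proteins gathered after their values had been seen. In 9 of the 11, wild-type replicate 2 was the highest wild-type pool. *DL1* (*GRMZM2G088309*), a DROOPING LEAF-type YABBY gene whose rice counterpart acts in carpels and leaf midribs, had 11.1, 5.67, 1.03 and 1.10 CPM in *Bif3/Bif3* and 0.671, 1.66 and 1.13 CPM in wild-type. Its ratio of 5.14 was among the largest of the 128 genes, and every wild-type pool was below both high mutant pools. The log2 fold change of *DL1* was 1.96 ± 0.72 (SE), not past the threshold.

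*gt1* (*GRMZM2G005624*), the homeodomain leucine zipper gene grassy tillers1 that represses bud outgrowth and carpel growth in maize, had 115, 101, 48.1 and 44.5 CPM in *Bif3/Bif3* and 35.4, 60.9 and 33.0 CPM in wild-type. Wild-type replicate 2 was above *Bif3/Bif3* replicates 3 and 4 here, while the other wild-type pools were below them. The YABBY gene *yab14* (*GRMZM2G005353*), of a family known for lateral organ polarity, had 18.2, 16.0, 7.47 and 6.81 CPM in *Bif3/Bif3* and 4.91, 19.1 and 10.1 CPM in wild-type. In *yab14* wild-type replicate 2 was the highest of all 7 pools. The TCP family gene *TCP5* (*GRMZM2G115516*) had 3.48, 3.63, 1.23 and 1.46 CPM in *Bif3/Bif3* and 0.623, 1.68 and 0.660 CPM in wild-type, and *MYB34* (*GRMZM2G125522*) had 3.93, 3.56, 1.34 and 1.38 CPM in *Bif3/Bif3* and 0.695, 1.80 and 0.777 CPM in wild-type. Both had wild-type replicate 2 above *Bif3/Bif3* replicates 3 and 4 and below replicates 1 and 2.

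*IAA12* (*GRMZM2G128421*), an Aux/IAA repressor of auxin response, had 3.98, 6.86, 1.70 and 1.81 CPM in *Bif3/Bif3* and 0.863, 4.80 and 1.61 CPM in wild-type. Besides *IAA12*, the list of 29 auxin response genes held 1 other of the 128, *AUX35* (*GRMZM2G167794*), with 6.33, 6.41, 2.73 and 2.44 CPM in *Bif3/Bif3* and 1.08, 3.82 and 1.28 CPM in wild-type. Of the 29, with a median log2 fold change of 0.23, 2 genes were higher and 3 lower in *Bif3/Bif3* at the threshold, and neither *IAA12* nor *AUX35* was among these. *EREB197* (*GRMZM2G174784*), of the AP2/ERF family, had 19.9, 20.7, 8.08 and 9.86 CPM in *Bif3/Bif3* and 6.33, 10.9 and 7.34 CPM in wild-type. The regulators whose highest wild-type pool was not replicate 2 were *SRS7* (*GRMZM2G135783*), a SHI-related zinc finger gene, with 4.03, 2.96 and 4.41 CPM in wild-type and 4.59, 3.50, 1.63 and 1.57 CPM in *Bif3/Bif3*, and the ovate family gene *OFP28* (*GRMZM2G122709*), with 5.68, 3.66 and 5.18 CPM in wild-type and 6.10, 5.25, 2.30 and 2.54 CPM in *Bif3/Bif3*. In *SRS7* and *OFP28* wild-type lay near the high mutant pools, and replicates 3 and 4 of *Bif3/Bif3* were the lowest of the 7.

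Enzymes of several other pathways were among the 128, and wild-type replicate 2 was the highest wild-type pool in 6 of the 8 gathered in this way. The polyamine oxidase gene *mpao1* (*GRMZM2G034152*) had 67.5, 56.0, 18.9 and 20.4 CPM in *Bif3/Bif3* and 29.3, 83.3 and 29.0 CPM in wild-type. Its wild-type replicate 2 was above all mutant pools, and the other wild-type pools were above *Bif3/Bif3* replicates 3 and 4. The cinnamoyl-CoA reductase gene *cncr1* (*GRMZM2G131205*), of the lignin pathway, had 4.52, 6.23, 1.41 and 1.77 CPM in *Bif3/Bif3* and 1.15, 6.42 and 1.07 CPM in wild-type. It was the only 1 of 26 lignin and phenylpropanoid genes among the 128, and of those 26, with a median log2 fold change of 0.15, 2 were higher in *Bif3/Bif3* and none lower.

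*CYP714B3* (*GRMZM2G106408*), whose rice relatives oxidize gibberellins, had 10.7, 10.7, 2.89 and 2.70 CPM in *Bif3/Bif3* and 2.42, 8.85 and 2.76 CPM in wild-type. The levels of *CYP714B3* formed a high set of replicates 1 and 2 and wild-type replicate 2 and a low set of the other pools. *CYP78A53* (*GRMZM2G092823*), of the P450 family of rice *PLASTOCHRON1*, had 64.2, 41.9, 17.3 and 16.9 CPM in *Bif3/Bif3* and 34.4, 27.3 and 26.0 CPM in wild-type. Here all wild-type pools lay between the low and the high mutant pools, with replicate 1 the highest. The lycopene epsilon cyclase gene *lcyE* (*GRMZM2G012966*), which directs carotenoids towards lutein, had 3.2, 2.8, 1.4 and 1.1 CPM in *Bif3/Bif3* and 1.1, 2.7 and 0.66 CPM in wild-type, and the cellulase gene *Cel21* (*GRMZM2G009025*) had 11.5, 10.5, 3.44 and 4.21 CPM in *Bif3/Bif3* and 3.76, 3.51 and 2.5 CPM in wild-type. *Cel21* had no wild-type pool near the high mutant pools.

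Some of the widest differences belonged to genes with an identifier alone. *GRMZM2G057159* had 33.3, 23.9, 2.13 and 4.47 CPM in *Bif3/Bif3* and 0.911, 12.3 and 1.71 CPM in wild-type. *GRMZM2G112210* had 37.0, 55.9, 5.19 and 7.93 CPM in *Bif3/Bif3* and 1.53, 32.7 and 3.38 CPM in wild-type. In both, wild-type replicate 2 was between the low and the high mutant pools and at least 7 times the other wild-type pools, with ratios of 7.20 and 9.68. *AC234165.1_FG002*, which had the largest ratio of the 128, had 3.30, 4.26, 0.425 and 0.472 CPM in *Bif3/Bif3* and 0.360, 0.678 and 0.291 CPM in wild-type. Its wild-type pools were close to the low mutant pools, with replicate 2 the highest by 1.89 times. *GRMZM2G033555*, with 62.4, 81.4, 28.0 and 26.0 CPM in *Bif3/Bif3* and 12.4, 89.2 and 17.9 CPM in wild-type, and *GRMZM2G096525*, with 14.3, 19.3, 3.31 and 3.68 CPM in *Bif3/Bif3* and 3.24, 37.0 and 6.15 CPM in wild-type, had their highest level of all in wild-type replicate 2.

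Other genes with no role given here were also highest, within each genotype, in these pools. *GRMZM2G104783* had 21.4, 17.0, 2.13 and 3.21 CPM in *Bif3/Bif3* and 2.11, 5.24 and 0.990 CPM in wild-type. *GRMZM2G007969* had 20.6, 20.7, 1.41 and 4.25 CPM in *Bif3/Bif3* and 2.61, 9.81 and 1.63 CPM in wild-type. In both, wild-type replicate 2 was above *Bif3/Bif3* replicates 3 and 4, at 2.49 and 3.76 times the higher of the other wild-type pools. *GRMZM2G017414* had 76.8, 80.9, 33.1 and 32.4 CPM in *Bif3/Bif3* and 23.7, 48.3 and 18.3 CPM in wild-type. *AC186231.4_FG002* had 27.8, 33.8, 6.91 and 10.4 CPM in *Bif3/Bif3* and 3.76, 34.9 and 5.46 CPM in wild-type. In the former wild-type replicate 2 lay between the mutant pools and in the latter it was the highest pool. *GRMZM2G054795* differed, with 9.39, 5.97, 1.32 and 0.905 CPM in *Bif3/Bif3* and 1.58, 1.80 and 1.61 CPM in wild-type, where the 3 wild-type pools were nearly level.

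A few genes stood apart in their wild-type levels. *GRMZM2G173685* had 4.00, 6.99, 0.358 and 1.06 CPM in *Bif3/Bif3* and 8.53, 6.80 and 8.72 CPM in wild-type, so all wild-type pools were above *Bif3/Bif3* replicate 1 and only wild-type replicate 2 was below replicate 2. The next genes were picked after their values had been seen. In *GRMZM2G365111* wild-type replicate 3 had no count, where the other wild-type pools had 7.50 and 15.1 CPM and the mutant pools 22.1, 19.1, 6.71 and 9.27 CPM. In *GRMZM2G070998* the same pool had 0.175 CPM, where the other wild-type pools had 3.93 and 6.26 CPM. These were the lowest points of the plot of the 128 genes by pool.

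The comparison of the genotypes asks which of these genes differed between *Bif3/Bif3* and wild-type in spite of the spread within each. A gene was past the threshold of the study at an adjusted p under 0.1, a p under 0.05 and a fold change over 1.5, in the quasi-likelihood test of edgeR, adjusted by Benjamini-Hochberg over the 40650 genes fitted. All 128 genes were fitted. Of these, 14 were higher in *Bif3/Bif3*, where 3.39% of all genes fitted and 4.96% of the other genes with at least 2 CPM were, 1 was lower, where 0.598% and 0.569% were, and 113 were not past the threshold. An unadjusted p under 0.05 was reached by 55, and by 26.1% of the other genes with at least 2 CPM. The log2 fold change was above 0 in 114 genes and had a median of 0.87, against -0.04 in the other genes with at least 2 CPM, and its standard error had a median of 0.45 against 0.11. Since the mutant pools of this contrast chose the genes, nothing is read from the difference between these shares. The 14 genes were those of the 128 in which all wild-type pools lay below all mutant pools, which was the case for 12.0% of the other genes.

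The number of higher genes changed when single pools were left out. Without wild-type replicate 2 it was 53, without wild-type replicate 1 it was 4 and without wild-type replicate 3 it was 3. Without *Bif3/Bif3* replicates 1, 2, 3 and 4 it was 10, 8, 37 and 22. Only 3 of the 14 genes were past the threshold in each fit that left out 1 pool, namely *ZCN14*, *GLK23* and *GRMZM2G443690*. With DESeq2 30 genes were higher, including all 14. For these fits the share of all genes fitted that was higher is not given. Whether the changes were particular to the genes chosen by the rule therefore cannot be read from these counts.

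**Figure D4:**
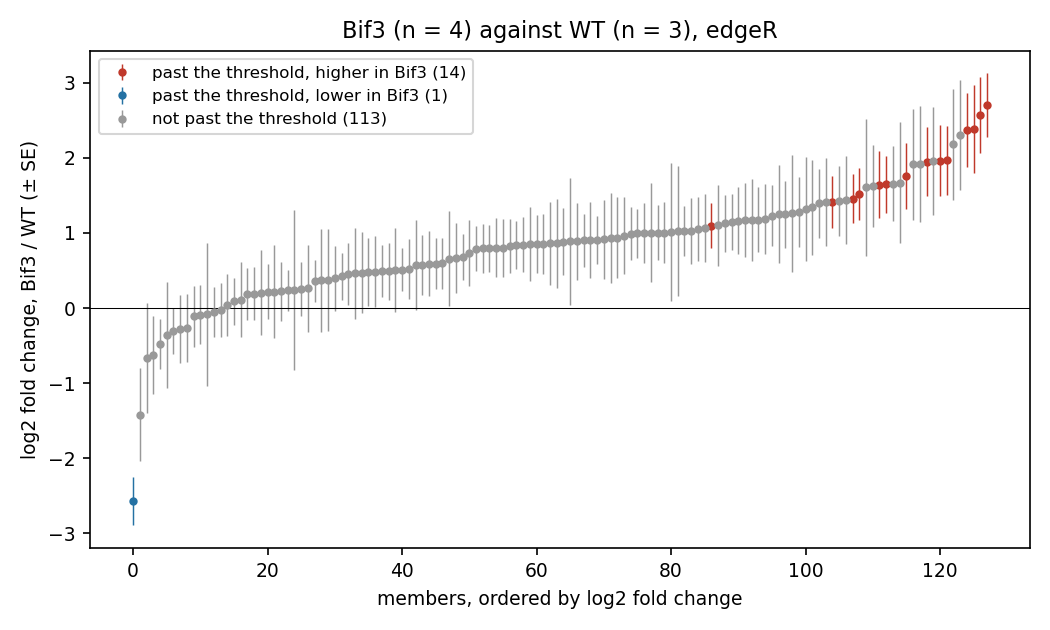
Points are the log2 fold changes of Bif3/Bif3 (n = 4) over wild-type (n = 3) of the 128 genes from edgeR, in order of size, with bars of 1 standard error. Red points are the 14 genes higher past the threshold, the blue point is the 1 lower gene at -2.57, and the grey points are the 113 others, most of them above 0 with wide bars.

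Signalling genes with a name were all among the 14, which follows in part from the source of their names, since the study annotated its differentially expressed genes. *ZCN14* (*GRMZM2G373928*), of the FLOWERING LOCUS T-like family of phosphatidylethanolamine-binding proteins, had 13.3, 13.8, 4.27 and 6.55 CPM in *Bif3/Bif3* and 1.44, 2.03 and 0.757 CPM in wild-type. It had the largest fold change of the 14, 2.70 ± 0.42 on the log2 scale (SE; edgeR adjusted p = 0.00736), and its lowest mutant pool was above its highest wild-type pool. *ZmCLE2-2* (*GRMZM2G354253*), which encodes a CLE peptide of the kind that CLAVATA receptors perceive, had 27.5, 25.1, 9.57 and 11.2 CPM in *Bif3/Bif3* and 5.39, 8.60 and 4.58 CPM in wild-type. The difference was 1.52 ± 0.35 on the log2 scale (SE; edgeR adjusted p = 0.0381), but replicates 3 and 4 lay close to wild-type replicate 2.

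A receptor-like serine/threonine kinase gene, *GRMZM2G043470*, had 46.4, 44.6, 17.9 and 18.7 CPM in *Bif3/Bif3* and 10.7, 14.7 and 8.46 CPM in wild-type. Its log2 fold change was 1.45 ± 0.33 (SE; edgeR adjusted p = 0.0351). The protein kinase gene *GRMZM2G443690* had 3.72, 3.54, 0.805 and 1.48 CPM in *Bif3/Bif3* and 0.527, 0.517 and 0.291 CPM in wild-type, a difference of 2.37 ± 0.50 on the log2 scale (SE; edgeR adjusted p = 0.0264). In this gene, wild-type replicates 1 and 2 were level.

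Of the transcription factors, 2 were past the threshold. *GLK23* (*GRMZM2G039074*), of the G2-like family, had 2.7, 3.2, 1.0 and 1.1 CPM in *Bif3/Bif3* and 0.216, 0.571 and 0.175 CPM in wild-type, a difference of 2.57 ± 0.51 on the log2 scale (SE; edgeR adjusted p = 0.0211). The homeobox gene *ZmHB102* (*GRMZM2G139963*) had 7.06, 7.56, 2.19 and 2.40 CPM in *Bif3/Bif3* and 0.911, 1.78 and 0.835 CPM in wild-type, a difference of 1.97 ± 0.46 on the log2 scale (SE; edgeR adjusted p = 0.0404). In *GLK23* and *ZmHB102* the low mutant pools were closer to wild-type replicate 2 than to the high mutant pools.

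Among the other higher genes was *GRMZM2G159149*, annotated by the study as a carboxy-lyase, with 134, 82.9, 25.5 and 37.5 CPM in *Bif3/Bif3* and 14.2, 24.2 and 14.0 CPM in wild-type. Its lowest mutant pool and its highest wild-type pool nearly met. The lipid transfer protein gene *plt1* (*GRMZM2G101958*) had 5.77, 4.10, 0.716 and 1.53 CPM in *Bif3/Bif3* and 0.431, 0.589 and 0.641 CPM in wild-type. *GRMZM2G080466* had 154, 159, 72.1 and 58.1 CPM in *Bif3/Bif3* and 25.2, 56.7 and 38.9 CPM in wild-type, and here too replicate 4 of the mutant and replicate 2 of wild-type were close. The remaining genes, *AC197699.3_FG001*, a metallothionein-like gene (*GRMZM2G430807*), a divalent ion symporter gene (*GRMZM2G073954*), an acylamino-acid-releasing enzyme gene (*GRMZM2G081504*) and a dynein light chain gene (*GRMZM2G346133*), had log2 fold changes of 1.96, 1.76, 1.65, 1.64 and 1.10. Their adjusted p-values were 0.0478, 0.0516, 0.0403, 0.0736 and 0.0726 in edgeR.

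The 1 lower gene was *GRMZM2G521862*, annotated by the study as *MKAKU42*, a maize relative of the Arabidopsis nuclear lamina protein KAKU4. It had 38.4, 30.5 and 30.1 CPM in wild-type and 9.93, 6.97, 2.95 and 3.15 CPM in *Bif3/Bif3*. Every mutant pool was below every wild-type pool, and the log2 fold change was -2.57 ± 0.32 (SE; edgeR adjusted p = 0.00276). In the reference gene table *GRMZM2G521862* shares its entry with *GRMZM2G063328*, so how reads were divided between these gene models is uncertain. In the reverse case, *lcyE*, *GRMZM2G074914* and *GRMZM2G030252* each match more than 1 entry, so the reference gene that each stands for is uncertain.

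The mutant gene itself did not follow these genes. *ZmWUS1* (*GRMZM2G047448*) had 4.47, 5.25, 3.83 and 12.5 CPM in *Bif3/Bif3* replicates 1 to 4 and 0.551, 0.321 and 0.311 CPM in wild-type. The 4 mutant pools were all above wild-type, which fits the labels, and replicate 4 was the highest. Its log2 fold change was 4.05 ± 0.47 (SE; edgeR adjusted p = 0.00194).

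Of the 7 markers of the ear primordium, 6 had counts in every pool and *bd1* had none in wild-type replicate 1, and some of the markers differed between the same pools as the 128 genes. The planned markers *ra2* and *tsh4* were not found by symbol and are not among the 7. *kn1* (*GRMZM2G017087*), the homeobox gene of meristem cells, had between 414 and 603 CPM. The spikelet meristem gene *bd1* (*GRMZM2G307119*), too low for the rule, had 2.99, 1.74, 0.112 and 0.0590 CPM in *Bif3/Bif3* and 0, 0.892 and 0.0971 CPM in wild-type, the same order of pools as in the 128 genes. *ra3* (*GRMZM2G014729*), which limits branching from spikelet pair meristems, had 61.5, 63.4, 102 and 117 CPM in *Bif3/Bif3* and 184, 123 and 177 CPM in wild-type. *BA1* (*GRMZM2G397518*), needed for axillary meristems, had 9.58, 8.86, 13.7 and 12.1 CPM in *Bif3/Bif3* and 29.6, 16.5 and 26.9 CPM in wild-type. For *ra1*, *ra3* and *BA1* the order was turned around: *Bif3/Bif3* replicates 1 and 2 were both below replicates 3 and 4, and wild-type replicate 2 was the lowest wild-type pool. In *fea2* the mutant pools had this order too, but wild-type replicate 2 was the highest wild-type pool. In *kn1* and *TD1* the high and low mutant pools overlapped, and wild-type replicate 2 was the lowest wild-type pool. Of the 7 markers, *ra3* and *BA1* were lower and *TD1* was higher in *Bif3/Bif3* at the threshold, and the part of these differences in the levels of the 128 genes was not tested.

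By symbol, the lists for other tissues and states held none of the 128 genes. The floral organ list was planned with *drl* genes but did not match the symbol *DL1*, the DROOPING LEAF-type gene among the 128 described above. Summed over 14 genes of green tissue, the *Bif3/Bif3* pools had 49.5, 59.0, 61.8 and 41.3 CPM and the wild-type pools 43.2, 33.6 and 37.5 CPM, and none of the 14 was past the threshold. The genes *PPDK* and *Pep1*, of carbon fixation, held between 85.8% and 97.9% of this sum. The other 12 genes, set apart after their values had been seen, summed to 5.11, 4.65, 1.30 and 1.95 CPM in *Bif3/Bif3* and to 1.32, 4.76 and 1.01 CPM in wild-type. These low sums were highest in *Bif3/Bif3* replicates 1 and 2 and wild-type replicate 2, as in most of the 128 genes, with up to 5 of the 12 genes at 0 counts in a pool. *Cab-m7* (*GRMZM2G402936*), which encodes a chlorophyll-binding protein, had 1.27, 1.04, 0.224 and 0.374 CPM in *Bif3/Bif3* and 0.168, 0.785 and 0.0777 CPM in wild-type. Of the 12 genes, 9 had wild-type replicate 2 as the highest wild-type pool and 7 had both high mutant pools above both low ones, and their part in the levels of the 128 genes was not tested. The 8 floral organ genes summed to between 24.4 and 25.7 CPM in the 4 mutant pools. In wild-type they summed to 36.2, 24.2 and 27.4 CPM. Most of each sum was *zmm16* (*GRMZM2G110153*), with at least 22.8 CPM in every pool, so the sums say little about the other floral organ genes. The 1 gene higher at the threshold, *ZAG1* (*GRMZM2G052890*), had 0.518, 2.24, 0.179 and 1.06 CPM in *Bif3/Bif3* and at most 0.0388 CPM in wild-type. Of the 8, *Bif3/Bif3* replicates 1 and 2 were both above replicates 3 and 4 in 1. The 26 heat shock protein genes summed to 2033, 2135, 2612 and 2698 CPM in *Bif3/Bif3* and to 3528, 2342 and 2689 CPM in wild-type, lowest in *Bif3/Bif3* replicates 1 and 2 and, within wild-type, in replicate 2, and 1 of them was higher and 1 lower at the threshold. The 31 jasmonate and defence genes summed to 712, 833, 581 and 682 CPM in *Bif3/Bif3* and to 491, 619 and 488 CPM in wild-type, and 6 of them were higher at the threshold and none lower. The 3 circadian clock genes summed to 1370, 1310, 1156 and 1094 CPM in *Bif3/Bif3* and to 849, 1153 and 966 CPM in wild-type. In the clock and defence lists the highest sums of each genotype were again in *Bif3/Bif3* replicates 1 and 2 and wild-type replicate 2. The abscisic acid and drought list and the sugar transport list had their highest sums in the same pools. The part of these lists in the levels of the 128 genes was not tested.

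Of the remaining lists, MADS-box genes had 3 of 31 higher, SBP-box genes 6 of 24, histones 4 of 10, low oxygen genes 3 of 8, abscisic acid and drought genes 2 of 29 and sugar transport genes 2 of 8, with none lower in these lists and 3.39% of all genes fitted higher. Their median log2 fold changes were 0.10, 0.38, 0.56, 0.39, 0.08 and 0.67 in that order. None of 3 vascular genes was past the threshold. In the lists described above, the medians were 0.51 for green tissue, 0.32 for floral organs, -0.28 for heat shock proteins, 0.43 for jasmonate and defence and 0.25 for the clock, and the 7 ear markers had a median of -0.02.

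Among the measures of the libraries, the TMM factors that scale library sizes were 1.04 and 1.02 in *Bif3/Bif3* replicates 1 and 2 and between 0.970 and 1.0 in the other 5 pools. With TMM-scaled CPM 103 genes met the rule. Over the 21640 genes with at least 1 CPM, *Bif3/Bif3* replicates 1 and 2 were the closest of all 21 pairs of pools, with a median absolute difference of 0.10 on the log2 scale. Their counts nevertheless differed. Among genes with at least 20 counts in the pair, 35.4% differed by more than the 95% range of counting error, against 46.1% to 57.2% for the other pairs of 1 genotype.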

How the data were processed

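The deposited values are read counts per gene from 3 wild-type and 4 *Bif3/Bif3* pools, whole numbers without normalization. According to the methods of the study, the authors used Trimmomatic for trimming, HISAT 2.1.0 for alignment to B73 v3 and HTSeq-count for counting, while the submitters' processing notes list TopHat2 2.1.1, Cuffdiff and edgeR. Libraries were stranded, and the strand setting of the counting is not given in the sources used here, so overlapping genes and close paralogs are uncertain.

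CPM used the column sums, and log2 values a pseudocount of 0.5 CPM. A floor of 3 counts, between 0.0535 and 0.0719 CPM, covers counting error only. Genotypes were compared in R 4.3.3 with edgeR 4.0.16 (earlier form of the quasi-likelihood fit, TMM scaling, no covariate) on the 40650 genes with at least 2 counts, since 65090 genes had none, and the fit was tested on simulated data. Alternatives were DESeq2 1.42.0, its size factors in edgeR, library size alone, the fit of edgeR 4, every gene of the table, edgeR's filter on low counts, an adjusted p under 0.05, a block for the replicate number, fits that left out 1 pool, other limits in the rule and TMM-scaled CPM.

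The genes and the lists were chosen with earlier results of these data known. A rule for naming covered the 15 genes with the largest ratio, the 15 with the highest mean CPM and up to 40 with a symbol or description. It also covered those next to the limit and the lower gene, 61 in all, besides list genes. Only some of the 61 are described above, and some genes described above are not among them. The grouping by role and the benzoxazinoid list followed the values, and symbol patterns of the lists were tightened, by symbol alone, once the table was open. Names and gene order came from a RefSeq gene table of NAM-5.0, which 96 of the 128 genes and 17048 of the genes fitted matched.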

Additional observations from a re-analysis of the deposited data

Results flagged for a closer look

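In *ZmWUS1* (*GRMZM2G047448*), the level of *Bif3/Bif3* replicate 4, 12.5 CPM, stood apart from the other 3 mutant pools at 4.47, 5.25 and 3.83 CPM. Its gap to the nearest pool was 0.836 of the range of the 4 pools, above Dixon's 95% critical value for 4 samples, which chance passes in about 1 in 20 groups. Replicate 4 was among the low pools for the 128 genes.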

How the results depend on the processing

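The number of genes that met the rule was 103 with TMM-scaled CPM, 419 with a fold of 1.5, 32 with a fold of 3, 202 with a mean of at least 1 CPM and 61 with a mean of at least 5 CPM, and ranged from 158 to 300 when 1 *Bif3/Bif3* pool was left out. The 14 genes higher in *Bif3/Bif3* became 30 with DESeq2 and between 3 and 53 with 1 pool left out, and were between 11 and 15 in the other edgeR fits without a block. The 1 lower gene became 2 without *Bif3/Bif3* replicate 2 and stayed 1 in the other fits that left out a pool. No label pairs the pools of the genotypes by replicate number. The deviations of same-numbered pools had correlations of -0.02, 0.49 and 0.27. Deviations within a genotype sum to 0, so these values cannot decide whether the pools were paired. With the replicate number as a block, 93 genes were higher and 2 lower. For these other fits, too, the shares over all genes fitted are not given. Wild-type replicate 2 was the highest wild-type pool in 113 genes with TMM-scaled CPM too, a setting chosen for this count after seeing the data, and the wild-type mean was nearer to the low mutant pools in 112 to 121 genes without 1 wild-type pool.

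Of the 1980 log2 fold changes of single genes under the alternatives, 67, in 26 genes, had the opposite sign to the reported value, which was at most 0.66 in size in these genes. Past the threshold was 1 of them, that of *GRMZM2G410352* without wild-type replicate 2, which had 6.94 CPM where the other wild-type pools had 0.240 and 0.252 CPM. It went from -0.08 to 3.24 (edgeR adjusted p = 0.0466), with a lowest value of -0.69 when another pool was left out. The genes reported above 0 had these lowest and highest log2 fold changes with 1 pool left out: *AC186231.4_FG002* -0.082 to 2.04, *GRMZM2G005353* -0.32 to 0.63, *GRMZM2G011233* -0.033 to 0.42, *GRMZM2G033555* -0.16 to 1.65, *GRMZM2G074427* -0.20 to 0.89, *GRMZM2G085381* -0.78 to 3.48, *GRMZM2G092823* -0.20 to 0.44, *GRMZM2G112681* -0.081 to 0.35, *GRMZM2G128421* -0.0105 to 1.47, *GRMZM2G129585* -0.024 to 0.72, *GRMZM2G131205* -0.22 to 1.60, *GRMZM2G147809* -0.074 to 0.49, *GRMZM2G162928* -0.0081 to 0.37, *GRMZM2G402417* -0.25 to 1.32, *GRMZM2G420571* -0.17 to 1.06 and *GRMZM2G460617* -0.063 to 2.04. The genes reported below 0 had *GRMZM2G034152* -0.58 to 0.43, *GRMZM2G055135* -0.44 to 0.13, *GRMZM2G082032* -1.04 to 0.31, *GRMZM2G096525* -1.18 to 1.04, *GRMZM2G139324* -0.27 to 0.23, *GRMZM2G154007* -0.84 to 1.51, *GRMZM2G169372* -0.56 to 0.16, *GRMZM2G469224* -0.41 to 0.22 and *GRMZM5G832362* -0.27 to 0.19. With the replicate block, *GRMZM2G139324*, *GRMZM2G154007*, *GRMZM2G410352* and *GRMZM5G832362* had 0.12, 0.36, 1.06 and 0.11, and with library size alone *GRMZM5G832362* had 0.013. Of the other values, 1708 kept their direction and their side of the threshold, 169 newly passed it and 36 no longer did, and the causes were not tested. The number of pools, 4 and 3, limits the precision of all these values.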
